A study of Mus musculus with 20 samples.

Results

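The transcripts of 10 mouse glutathione S-transferase genes were read in 20 RNA-seq libraries of Hepa-1 cells, a mouse hepatoma line that responds to ligands of the aryl hydrocarbon receptor. The members are the alpha-class gene Gsta4, the mu-class genes Gstm1 and Gstm2, the pi-class gene Gstp1, the omega-class gene Gsto1, the theta-class genes Gstt1 and Gstt2, the zeta-class gene Gstz1, the kappa-class gene Gstk1 and the microsomal gene Mgst1. They were found by Entrez gene ID and make up 10 of the 23373 gene IDs in the count table. The study grew Hepa-1 cells normally or with hexavalent chromium, Cr(VI), and asked for their response to benzo[a]pyrene (B[a]P), a combustion product that activates the receptor. There were 10 groups of 2 libraries each. At passage 20, cells grown normally (control-grown) and cells grown with Cr(VI) were each given the solvent DMSO or B[a]P for 8 hours. At passage 25 the same 4 groups were sampled again, together with recovered cells, which had been grown for 20 passages with Cr(VI) followed by 5 in its absence, under DMSO and under B[a]P. As labelled, chromium growth used 0.5 mM Cr(VI) and the B[a]P dose was 5 mM. The series title speaks of low concentrations of Cr(VI), so the unit of these labels is uncertain. All cells were kept in alpha-MEM with 5% fetal bovine serum. A single cell line limits the groups as a model of liver, and the labels do not say whether the 2 libraries of a group came from separate cultures, so p-values reflect the spread among these libraries alone, which may be technical.

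Glutathione S-transferases join the thiol of the tripeptide glutathione to electrophilic compounds, which makes them more soluble and marks them for export. The soluble classes named alpha, mu, pi, omega, theta and zeta share a fold, the kappa class is mitochondrial and peroxisomal, and the microsomal enzymes are membrane proteins of a separate family. In liver, several alpha, mu and pi genes are known targets of the transcription factor Nrf2 (gene Nfe2l2), which binds antioxidant response elements, and some are also linked to the aryl hydrocarbon receptor, which binds xenobiotic response elements with its partner Arnt. Metabolites of B[a]P, among them diol epoxides, are textbook substrates of the pi and mu enzymes.

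The sequences upstream of the starts of 4 members are shown because these had the highest median levels of the 10. They are the 250 bases before the transcription start, written 5′ to 3′ on the strand of the gene, from RefSeq on GRCm38.p6. Of the 10 members, 8 matched an entry, and Gsta4 and Gstt2 did not. The member with the largest B[a]P response, Gsta4, is therefore not among those shown. Capitals mark matches to 3 motifs, which were searched on both strands: the antioxidant response element core TGACNNNGC, the AP-1 site TGAGTCA and the xenobiotic response element core GCGTG.
Gstp1, chr19:4037913-4038162, minus strand: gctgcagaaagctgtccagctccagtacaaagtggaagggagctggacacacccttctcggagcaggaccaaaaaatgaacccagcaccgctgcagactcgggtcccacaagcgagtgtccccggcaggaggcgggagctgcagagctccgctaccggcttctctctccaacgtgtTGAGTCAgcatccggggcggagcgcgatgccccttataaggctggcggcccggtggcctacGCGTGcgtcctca
Gstm1, chr3:108017974-108018223, minus strand: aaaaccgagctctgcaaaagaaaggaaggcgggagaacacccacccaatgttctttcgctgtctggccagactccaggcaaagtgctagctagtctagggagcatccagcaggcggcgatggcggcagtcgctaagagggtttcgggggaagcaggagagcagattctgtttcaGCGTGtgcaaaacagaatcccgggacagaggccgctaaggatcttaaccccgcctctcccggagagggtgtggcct
Gsto1, chr19:47854723-47854972, plus strand: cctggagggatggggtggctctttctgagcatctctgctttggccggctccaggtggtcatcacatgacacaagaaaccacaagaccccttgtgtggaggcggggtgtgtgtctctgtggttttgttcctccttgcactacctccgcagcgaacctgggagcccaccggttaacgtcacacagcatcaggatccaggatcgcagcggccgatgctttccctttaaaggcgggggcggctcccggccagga
Mgst1, chr6:138140277-138140526, plus strand: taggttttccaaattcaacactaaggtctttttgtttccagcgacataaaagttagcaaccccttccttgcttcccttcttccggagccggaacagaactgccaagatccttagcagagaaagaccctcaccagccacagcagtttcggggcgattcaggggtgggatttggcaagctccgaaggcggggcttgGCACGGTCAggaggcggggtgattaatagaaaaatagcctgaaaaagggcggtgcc

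The Gstp1 window held TGAGTCA from 74 to 68 bases before the start and GCGTG from 13 to 9 bases before it. The Gstm1 window held GCGTG from 76 to 72 bases before the start. The Mgst1 window held TGACNNNGC on the opposite strand, from 56 to 48 bases before the start, and the Gsto1 window held none of the 3. None of these matches overlapped another. The windows of Gstm2, Gstk1, Gstt1 and Gstz1, which are not shown, held none of the 3 motifs. Gstm1 and Mgst1 each have a further start entry, also not shown. Before that of Gstm1 the same GCGTG lies from 231 to 227 bases away, and that of Mgst1 held no match. Over all 32851 upstream windows of the same length, 28.2% held GCGTG, 10.2% held TGACNNNGC and 4.5% held TGAGTCA, so a match to GCGTG in particular was common. A match is a description of these letters only.

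Total counts per library were 20976045 to 37930720. At passage 25 the replicate numbers separated the libraries: 33.8% of the 14343 genes tested were higher in replicate 2 than in replicate 1 in all 6 groups of that passage. At passage 20 the 2 libraries of Cr(VI)-grown cells under DMSO differed by over 2-fold in 32.2% of genes. The control-grown pairs of that passage differed so in only 2.45% (DMSO) and 1.58% (B[a]P) of genes, against 21% to 56.7% in the groups of passage 25. The small spread of those control-grown groups may be technical. The treatment itself was visible in every pair of equal replicate number. Cyp1a1, the cytochrome P450 that oxidises aromatic hydrocarbons and the standard target of the receptor, was higher under B[a]P by 4.29 to 6.25 on the log2 scale in 10 of 10 pairs, and the quinone reductase gene Nqo1 by 3.06 to 4.59. Of 10 hepatocyte and hepatoma markers, Alb (825.8 to 5697.7 CPM, counts scaled to a common library size by TMM), Trf (517.1 to 2824.6 CPM) and Afp (102.2 to 334.4 CPM) were abundant. The other markers were low: the median of 6 of the 10, among them Apoa1, Apob, Hnf4a and Ahsg, lay under 1 CPM. The 5 endothelial markers summed to 1.58 CPM at most, the 6 macrophage markers to 65.7 to 139.9 CPM, the 8 stellate cell and fibroblast markers to 411.8 to 1608.9 CPM and the 5 cholangiocyte markers to 445.5 to 2057.8 CPM. None of these sums separated DMSO from B[a]P libraries. Single markers did move: the macrophage marker Cd68 rose 1.99-fold with B[a]P over 5 settings (edgeR, adjusted p = 0.000472), and the cholangiocyte marker Sox9 fell, with a log2 difference of -0.72 (adjusted p = 0.0022). Their part in the results was not tested.

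Divided by transcript length, the members spanned a wide range. The pi-class gene Gstp1 was the most abundant, with a median over libraries of 1143.3 CPM per kilobase of transcript. It was followed by Gsto1 at 386.4, Gstm1 at 249.4, Mgst1 at 196.4, Gstm2 at 106.2 and Gsta4 at 63.5 CPM per kilobase. Gstk1 at 10.4 and Gstz1 at 8.12 CPM per kilobase were far lower, and the theta-class genes Gstt1 at 0.969 and Gstt2 at 0.057 CPM per kilobase were lowest. Gstp1 stood above Gsto1 in 20 of 20 libraries, as did Mgst1 above Gstm2, Gsta4 above Gstk1 and Gstz1 above Gstt1. The order of the other neighbours was less firm: Gsto1 exceeded Gstm1 in 14 of 20 libraries, Gstk1 exceeded Gstz1 in 16, Gstm1 exceeded Mgst1 in 17 and Gstm2 exceeded Gsta4 in 18.

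Together the 10 genes took 0.11% and 0.111% of all counts in the 2 libraries of control-grown DMSO cells at passage 20. The highest share was 0.531%, in replicate 2 of control-grown B[a]P cells at passage 25. Gstp1 alone supplied between 27.8% and 61.7% of these member counts, with a median of 44.5%.

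Gstt2 had too few counts to be tested. Its counts were 0 to 14 per library, and the library with a count of 0, control-grown DMSO replicate 1 at passage 20, allows up to 0.118 CPM, the level of 3 counts. This limit covers counting error only. Gstt1, whose enzyme acts on small halogenated compounds, was tested but with 11 to 165 counts per library, so its fold changes are imprecise. The other 8 members had at least 158 counts in every library, the lowest being Gstk1.

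On GRCm38 the members lie on 6 chromosomes and all are protein-coding. The mu-class pair are near neighbours on chromosome 3, with Gstm2 from 107981702 to 107986420 and Gstm1 from 108012250 to 108017973. The theta-class pair lie together on chromosome 10, with Gstt1 from 75783813 to 75798584 and Gstt2 from 75831842 to 75837419. Chromosome 19 holds both Gstp1 (4035411 to 4037912) and Gsto1 (47854973 to 47864790), and chromosome 6 holds Gstk1 (42245935 to 42250441) and Mgst1 (138140527 to 138156755). Gsta4 lies on chromosome 9 from 78191966 to 78209349 and Gstz1 on chromosome 12 from 87147161 to 87164723.

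Some members cannot be separated fully from near copies in such a table. Of all windows of 50 bases in the Gstp1 transcript, 62.3% also occur in a transcript of another gene, in each case its neighbour Gstp2. For Gstm1 the share was 23.1% and for Gstm2 9.4%. It was 0.7% for Gstt2 and 0% for the other 6 members. Counts of Gstp1 and Gstp2 ran together: the ratio of Gstp1 to Gstp2 stayed between 1.29 and 1.46 in all 20 libraries. Values given for Gstp1 may therefore include reads of Gstp2, and the reverse.

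**Figure D1:**
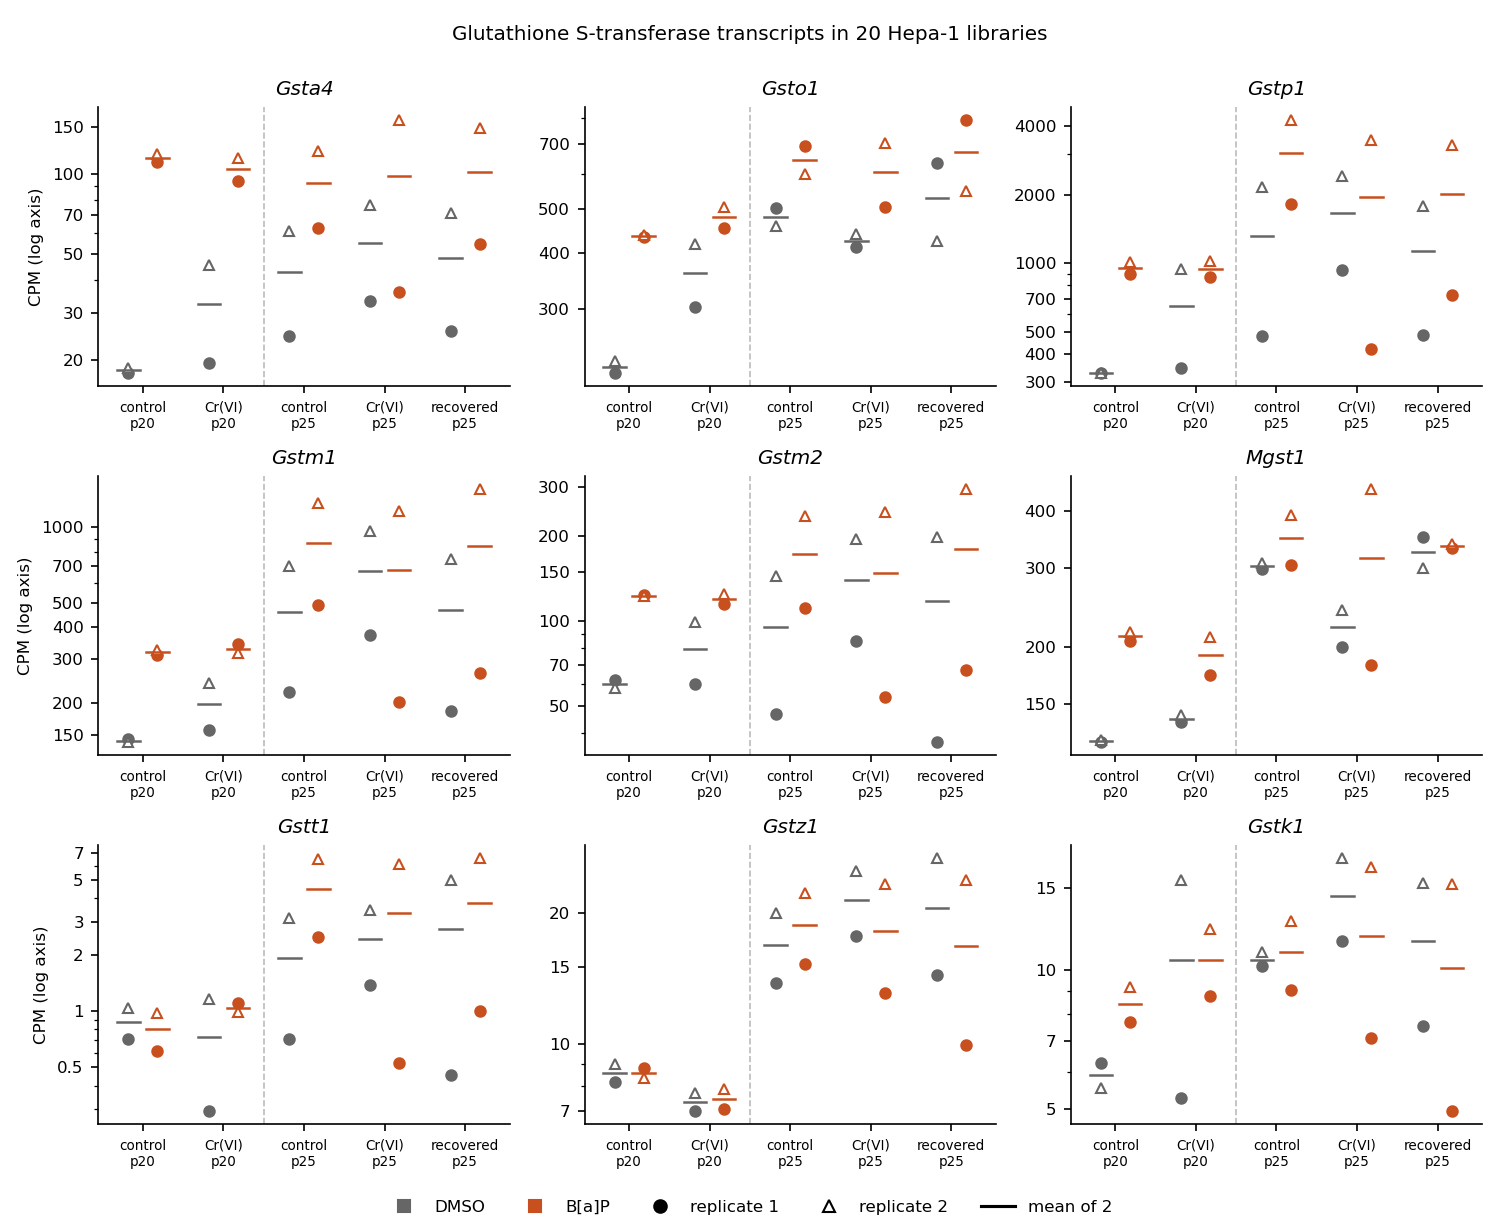
Level of 9 members in CPM (log axis) in each of the 20 libraries, by growth history and passage (p20, p25), with DMSO in grey, B[a]P in orange, replicate 1 as filled circles, replicate 2 as open triangles and the mean of 2 as a bar. At passage 25 the triangles lie above the circles in every group for Gsta4, Gstm1, Gstm2, Gstp1, Gstt1, Gstz1 and Gstk1, but not for Gsto1 or Mgst1.

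Gsta4, whose enzyme conjugates the lipid peroxidation product 4-hydroxynonenal, had the largest B[a]P response of the members. In control-grown cells at passage 20 its levels were 17.9 and 18.8 CPM under DMSO and 111 and 119.3 CPM under B[a]P. Cr(VI)-grown cells of that passage had 19.6 and 45.7 CPM under DMSO and 94.6 and 115 CPM under B[a]P. At passage 25 the control-grown libraries read 24.8 and 61.3 CPM under DMSO and 62.7 and 122.6 CPM under B[a]P. In these 3 settings both B[a]P libraries lay above both DMSO libraries. The Cr(VI)-grown libraries of passage 25 read 33.4 and 76.7 CPM under DMSO against 36.1 and 160 CPM under B[a]P, and the recovered libraries 25.8 and 71.4 CPM against 54.9 and 149 CPM. There the groups overlapped, since replicate 2 under DMSO exceeded replicate 1 under B[a]P.

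Over the 5 settings (control-grown and Cr(VI)-grown cells at both passages, and recovered cells) Gsta4 rose 2.77-fold with B[a]P (log2 1.47 ± 0.35 SE, edgeR quasi-likelihood test, adjusted p = 0.0192, by the Benjamini-Hochberg method over all genes tested). The highest group mean was 115 ± 6.04 CPM (SD, n = 2) in control-grown B[a]P cells at passage 20 and the lowest 18.4 ± 0.695 CPM in their DMSO controls. The group means of the other B[a]P settings, from 92.7 to 105 CPM, did not differ from each other beyond their spread. In pairs of equal replicate number Gsta4 was higher under B[a]P in 10 of 10, from 1.08-fold to 6.33-fold. Leaving out control-grown DMSO replicate 1 of passage 20 moved its adjusted p to 0.0518, and 19 other omissions of 1 library kept it past the threshold of 0.05.

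The other member that rose over the 5 settings was Gsto1, whose enzyme has thioltransferase and dehydroascorbate reductase activity. At passage 20 it had 215 and 230 CPM under DMSO and 434 and 438 CPM under B[a]P in control-grown cells, while Cr(VI)-grown cells had 304 and 418 CPM against 454 and 507 CPM. At passage 25 the values were 505 and 460 CPM against 692 and 599 CPM in control-grown cells, and Cr(VI)-grown cells had 412 and 440 CPM against 506 and 704 CPM. Both B[a]P libraries exceeded both DMSO libraries in these 4 settings. In recovered cells the values were 634 and 426 CPM against 793 and 549 CPM, and the groups overlapped. The rise was 1.44-fold (log2 0.53 ± 0.14, adjusted p = 0.0386), and 10 of 10 pairs were higher under B[a]P. The call was not firm: with 16 of the 20 libraries, left out one at a time, the adjusted p passed 0.05, up to 0.106, and without the count filter it was 0.103. The 4 omissions that kept it were replicate 2 of Cr(VI)-grown DMSO cells at passage 20, and replicate 1 of Cr(VI)-grown B[a]P, replicate 1 of recovered DMSO and replicate 2 of recovered B[a]P cells at passage 25. The log2 value itself stayed between 0.47 and 0.59.

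The other 7 tested members did not pass over the 5 settings, so 2 of 9 rose and 0 fell. Of all 14343 genes, 7.59% passed and 3.86% were higher under B[a]P. The median log2 difference was 0.53 over the 9 members, 0 over all genes tested and -0.01 over 1942 other genes with transcripts of the same length range (821 to 1656 bases). With the replicate number as a block in the fit, which the data bear out as a pairing for passage 25 only, 6 of 9 members passed, all higher, where 28.3% of all genes passed and 14.1% were higher. The 6 were Gsta4 (adjusted p = 2.8e-06), Gstm1 (0.0018), Gsto1 (0.00238), Gstm2 (0.00312), Gstp1 (0.00359) and Mgst1 (0.0327). The share of all genes higher under B[a]P in 10 of 10 pairs was 6.04%, and Gsta4 and Gsto1 were the members that met this. Both B[a]P libraries were above both DMSO libraries in at least 4 of the 5 settings for 4.56% of all genes and, among the members, for Gsto1.

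**Figure D2:**
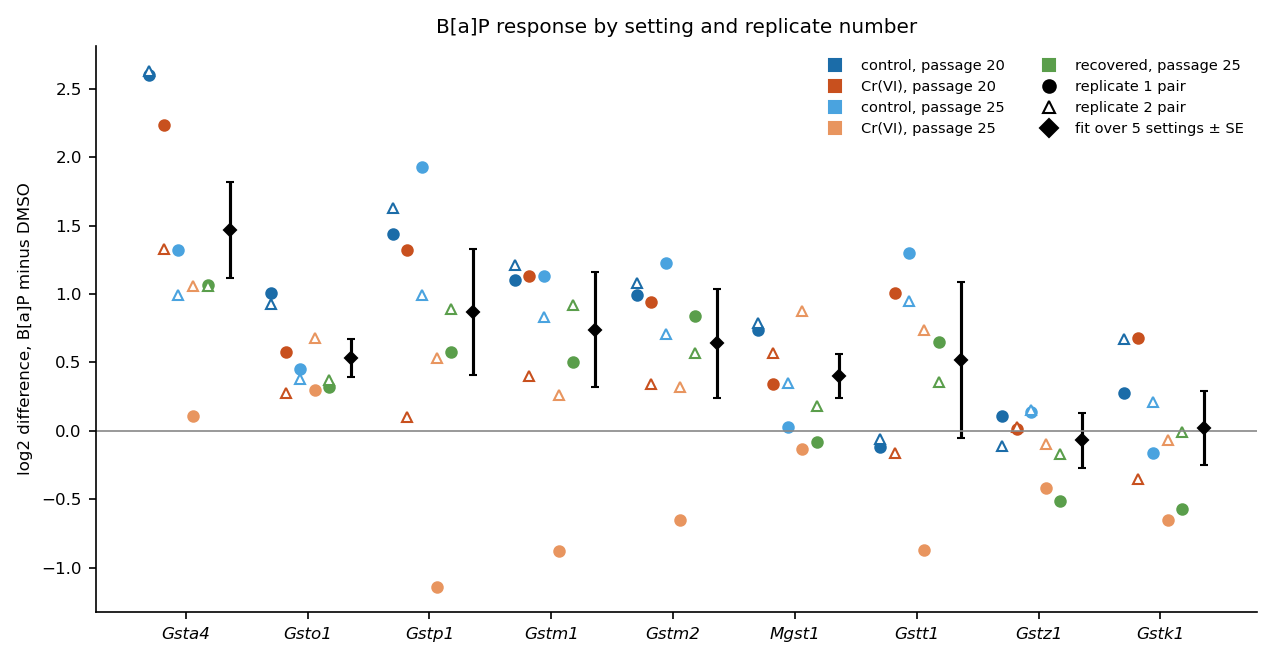
Log2 difference between B[a]P and DMSO for 9 members, by pair of equal replicate number (circles replicate 1, triangles replicate 2, colours by growth history and passage), with the fitted value over 5 settings ± SE as black diamonds. Gsta4 and Gsto1 lie above 0 in 10 of 10 pairs, and the pair of replicate 1 in Cr(VI)-grown cells at passage 25 is the lowest point of Gsta4, Gstp1, Gstm1, Gstm2, Mgst1, Gstt1 and Gstk1.

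Gstp1 encodes the pi-class enzyme, a marker of early liver lesions in the rat. Its levels at passage 20 were 330 and 329 CPM under DMSO and 897 and 1016 CPM under B[a]P in control-grown cells, where the groups were well apart. Cr(VI)-grown cells of that passage had 346 and 947 CPM under DMSO and 869 and 1017 CPM under B[a]P, and the groups overlapped. At passage 25 the control-grown libraries read 478 and 2150 CPM under DMSO and 1819 and 4257 CPM under B[a]P, and the recovered libraries 485 and 1777 CPM against 727 and 3297 CPM. Within each replicate number B[a]P was the higher of these. Cr(VI)-grown cells of passage 25 went 2 ways: replicate 1 had 930 CPM under DMSO and 421 CPM under B[a]P, while replicate 2 had 2405 and 3463 CPM. The log2 difference over 5 settings was 0.87 ± 0.46 (adjusted p = 0.356, and 0.00359 with the block).

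The mu-class genes Gstm1 and Gstm2 followed the same arrangement of libraries. Gstm1 went from 144 and 140 CPM to 311 and 326 CPM with B[a]P in control-grown cells at passage 20, and in Cr(VI)-grown cells from 156 and 240 CPM to 342 and 317 CPM. At passage 25 it read 223 and 700 CPM against 490 and 1245 CPM in control-grown cells, 374 and 965 CPM against 203 and 1154 CPM in Cr(VI)-grown cells, and 187 and 747 CPM against 265 and 1418 CPM in recovered cells. Both B[a]P libraries were above both DMSO libraries at passage 20 and overlapped them at passage 25. Gstm2 went from 62.0 and 57.7 CPM to 123.6 and 122.4 CPM in control-grown cells at passage 20. Over 5 settings the log2 difference was 0.74 ± 0.42 for Gstm1 (adjusted p = 0.407) and 0.64 ± 0.40 for Gstm2 (adjusted p = 0.477), neither past the threshold. Both passed with the block, and in fits with no block that used only 1 replicate number at passage 25. Without replicate 2 of that passage the adjusted p was 0.0381 for Gstm1 and 0.0329 for Gstm2, beside 14.4% of all genes called, and without replicate 1, an alternative chosen after seeing the data, 0.0108 and 0.0252, beside 15.9%.

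For Gstm1, Gstm2 and Gstp1 alike, 9 of 10 pairs were higher under B[a]P, a count that 14.2% of all genes reached. The exception was the same pair for each, replicate 1 of Cr(VI)-grown cells at passage 25, in which the log2 difference was -0.88 for Gstm1, -0.65 for Gstm2 and -1.14 for Gstp1. In that pair the treatment genes had moved as elsewhere, with Cyp1a1 4.80 and Nqo1 3.32 higher on the log2 scale. Gsta4 was 1.08-fold higher there. The TMM factors of this pair were unequal, at 1.38 for the B[a]P library and 1.02 for its DMSO partner. A higher factor lowers the CPM of every gene in a library, so the pair differences given here depend on this scaling. They were not computed with another scaling, and its part in the exception was not tested.

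The ratio between the mu-class genes differed by passage, a pattern chosen after its values were seen. Gstm1 was 2.33 to 2.97 times Gstm2 in the 8 libraries of passage 20 and 3.77 to 5.27 times Gstm2 in the 12 libraries of passage 25, with no overlap. The ratio of Gstm1 to Gstm3, another mu-class gene, was 8.32 to 11.3 at passage 20 and 7.99 to 8.62 at passage 25, which overlap. Of the windows of 50 bases in the Gstm1 transcript, 17.3% also occur in Gstm2-ps1, 10% in Gstm3 and 0.9% in Gstm2. Reads of Gstm1 therefore cannot be told apart throughout from those of Gstm2-ps1 or Gstm3. For Gstm2 the gene that shared most windows was Gm12499, at 5.5%.

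**Figure D3:**
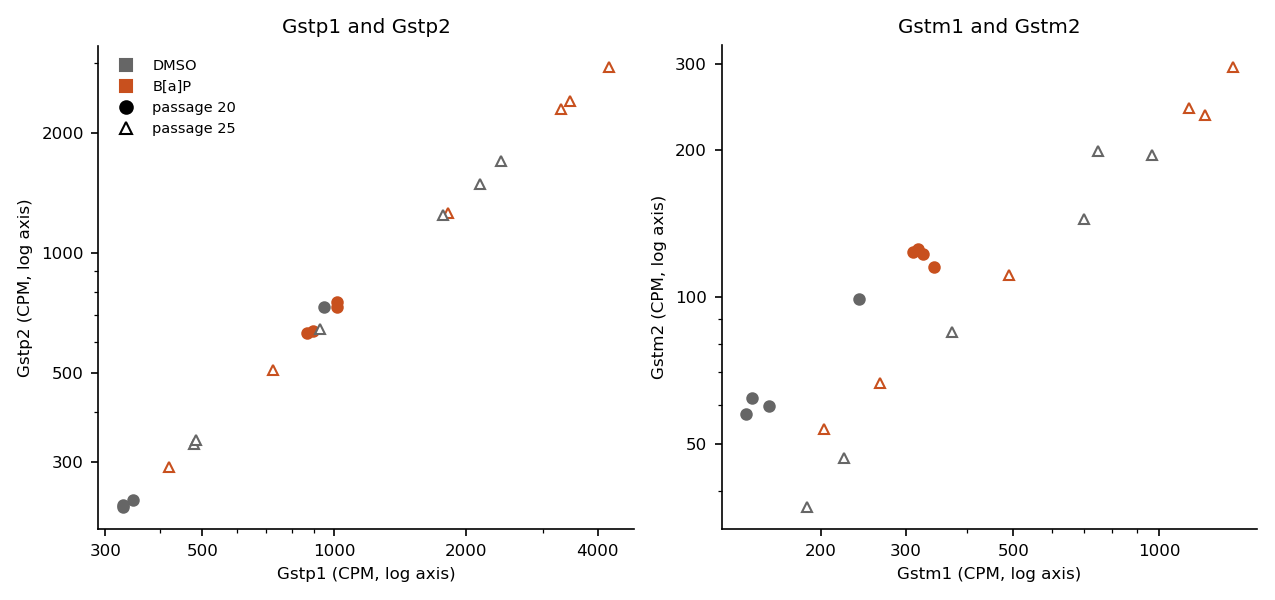
Levels of Gstp1 against Gstp2 and of Gstm1 against Gstm2 in 20 libraries (CPM, log axes), with DMSO in grey, B[a]P in orange, passage 20 as filled circles and passage 25 as open triangles. The pi-class points fall on one line with a ratio of 1.29 to 1.46, while the mu-class points form separate bands, with ratios of 2.33 to 2.97 at passage 20 and 3.77 to 5.27 at passage 25.

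Mgst1, a membrane-bound enzyme with transferase and peroxidase activity, read 123.5 and 125.1 CPM under DMSO and 207 and 216 CPM under B[a]P in control-grown cells at passage 20. Cr(VI)-grown cells of that passage had 137 and 142 CPM against 174 and 210 CPM, also without overlap. At passage 25 the control-grown values were 297 and 308 CPM against 303 and 392 CPM, the Cr(VI)-grown values 201 and 242 CPM against 183 and 447 CPM, and the recovered values 350 and 299 CPM against 331 and 339 CPM. In these 3 settings the groups overlapped. Over 5 settings its log2 difference was 0.40 ± 0.16 (adjusted p = 0.175, and 0.0327 with the block), and 8 of 10 pairs were higher. Without replicate 1 of Cr(VI)-grown B[a]P cells at passage 25 its adjusted p was 0.0191.

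The remaining members did not pass or could not be tested. Gstz1, the maleylacetoacetate isomerase of tyrosine breakdown, had 6.99 to 9.01 CPM at passage 20 and 9.92 to 26.8 CPM at passage 25, and 5 of 10 pairs were higher under B[a]P (log2 -0.07 ± 0.20, adjusted p = 0.966). Gstk1, the kappa-class enzyme, ranged from 4.94 to 17.4 CPM, and 4 of 10 pairs were higher (log2 0.02 ± 0.27, adjusted p = 0.999). For Gstt1 the difference was 0.52 ± 0.57 (adjusted p = 0.804), with 6 of 10 pairs higher. An interval of 2 SE on either side still allows -0.47 to 0.33 for Gstz1, -0.52 to 0.56 for Gstk1 and -0.62 to 1.66 for Gstt1. For Gstt2, which was not tested, 8 of 10 pairs were higher under B[a]P, with differences of -0.27 to 0.38 on the log2(CPM + 0.5) scale, and both B[a]P libraries lay above both DMSO libraries in 3 of 5 settings. With 0 to 14 counts per library, each of these differences rests on a few reads. No share of all genes was computed for 8 of 10 pairs or 3 of 5 settings, so neither shows a rise.

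By growth history, none of the 9 members passed in edgeR fitted to all 20 libraries without the block. In control-grown cells over both passages, where 2.2% of all genes passed, the largest log2 differences were those of Gsta4 (1.88 ± 0.55, adjusted p = 0.122), Gstp1 (1.37 ± 0.74, adjusted p = 0.56), Gstm1 (1.04 ± 0.67, adjusted p = 0.713) and Gstm2 (0.95 ± 0.64, adjusted p = 0.742). For Gsto1 the value was 0.70 ± 0.23 (adjusted p = 0.178). The unadjusted p of 2 members was under 0.05, and DESeq2 called Gsta4 and Gsto1, so 2 of 9, beside 5.35% of all genes. With only the groups compared, edgeR without the block called Gsta4 (adjusted p = 0.0382), beside 3.8% of all genes. Without replicate 2 of passage 25 the log2 differences were 2.02 for Gsta4, 1.76 for Gstp1, 1.18 for Gstm1 and 1.17 for Gstm2. Without replicate 1, chosen after seeing the data, they were 1.84, 1.28, 1.01 and 0.89. Members passed in both of these fits, which left 1 library in each group of passage 25. With the block, where 16.7% of all genes passed and 7.57% were higher, 5 members rose: Gsta4, Gstm1, Gstm2, Gstp1 and Gsto1. At passage 20 alone, Gsta4 was 6.27-fold higher in control-grown cells (log2 2.65 ± 0.81, adjusted p = 0.174, and 0.000136 with the block), where 1.23% of all genes passed without the block and 13.4% with it. A fit to the 4 control-grown libraries of passage 20 called 7 of 9 members, but 60.3% of all genes passed there. At passage 25 alone, 0 members passed in control-grown cells without the block (0.0488% of all genes, 0 members with an unadjusted p under 0.05, 0 by DESeq2) and Gsta4 passed with it, beside 2.71% of all genes.

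In Cr(VI)-grown cells 0 of 9 members passed, as did 0.941% of all genes, with 1 member at an unadjusted p under 0.05 and 0 by DESeq2. Gsta4 was 1.26 ± 0.54 higher on the log2 scale (adjusted p = 0.495), and with the block it was the 1 member that rose (adjusted p = 0.00245), where 11.3% of all genes passed and 5.82% were higher. By passage, Gsta4 was 1.69 ± 0.78 higher at passage 20 (adjusted p = 1, and 0.0069 with the block) and 0.83 ± 0.76 higher at passage 25 (adjusted p = 0.97). The shares of all genes past the threshold were 0.0418% and 0.0558% without the block and 3.05% and 5.45% with it. In recovered cells 0 of 9 passed in any of these fits, beside 0.0558% of all genes without the block and 1.5% with it, and 0 had an unadjusted p under 0.05 without the block. Gsta4 differed by 1.07 ± 0.77 there, and by 0.18 to 1.99 when 1 library was left out. The recovered and the control-grown cells of passage 25 shared no library in these treatment differences. The test of their difference gave 0 of 9 members and 0% of all genes for edgeR, with or without the block, and for DESeq2. In edgeR 0 members had an unadjusted p under 0.05. For Gsta4 that difference was -0.04, with an interval of -2.18 to 2.10.

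Whether Cr(VI) growth altered the B[a]P response was tested as an interaction. The interaction was negative for 8 of 9 members, with a median of -0.42 against 0.09 over all genes, but 0 of 9 passed, as did 0% of all genes, DESeq2 called 0, and no unadjusted p was under 0.05. For Gstp1 the value was -0.99 ± 1.03, with an interval of -3.05 to 1.07, and for Gsta4 -0.62 ± 0.76, from -2.14 to 0.90. Leaving out 1 library moved these values between -2.1 and -0.54 for Gstp1 and between -1.34 and -0.25 for Gsta4. With the block 0 members and 0% of all genes passed. There 4 members had an unadjusted p under 0.05, but the share of all genes under that cutoff was not computed. When the effect of B[a]P was compared between the passages, 0 of 9 members passed, beside 0% of all genes (0.265% with the block), no unadjusted p was under 0.05 without the block, and DESeq2 called 0. Gsta4 had the largest, -1.20 ± 0.76 for passage 25 minus passage 20 (adjusted p = 1, and 0.0998 with the block), with an interval of -2.72 to 0.32.

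Growth with Cr(VI) itself was compared under DMSO. No member passed (0 of 9, 0% of all genes, 0 members with an unadjusted p under 0.05, 0 by DESeq2), and 8 of 9 differences were positive, with a median of 0.48 against -0.03 over all genes. The largest were Gstp1 at 0.66 ± 0.73 (adjusted p = 0.895), Gstk1 at 0.64 ± 0.44, Gsta4 at 0.59 ± 0.54 and Gstm1 at 0.51 ± 0.66. These values moved with single libraries: leaving out 1 gave 0.21 to 1.38 for Gstp1, 0.14 to 0.92 for Gstk1, 0.22 to 0.98 for Gsta4 and 0.08 to 1.02 for Gstm1. In the Cr(VI)-grown DMSO group of passage 20, replicate 2 exceeded replicate 1 for each of these genes. On the log2 scale the gap was 1.48 for Gstk1, 1.45 for Gstp1, 1.2 for Gsta4 and 0.62 for Gstm1. Its median was 0.72 over the 9 members and 0.74 over the 1942 other genes with transcripts of the same length range. Over all genes the median was -0.03, and over genes with transcripts above 5 kb -0.77. Replicate 1 had 346 CPM of Gstp1 and 19.6 CPM of Gsta4, close to the 330 and 329 CPM and the 17.9 and 18.8 CPM of the control-grown libraries. With the block 0 members and 3.7% of all genes passed. In that fit 4 members had an unadjusted p under 0.05, a cutoff for which no share of all genes was computed. Under B[a]P the comparison gave 0 of 9 as well, with a median of -0.12, beside 0% of all genes, 0 members at an unadjusted p under 0.05 and 0 by DESeq2. Recovered cells compared with control-grown or with Cr(VI)-grown cells under DMSO gave 0 of 9 each, beside 0% of all genes, 0 members at an unadjusted p under 0.05 and 0 by DESeq2. These comparisons share the DMSO libraries of passage 25. The medians were 0.14 and -0.18.

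From passage 20 to passage 25, 4 of 9 members were higher and 0 lower, where 19.4% of all genes passed and 10.1% were higher. Gstz1 rose by 1.23 ± 0.23 on the log2 scale (adjusted p = 0.00323), Mgst1 by 0.85 ± 0.18 (adjusted p = 0.00674), Gstm1 by 1.49 ± 0.48 (adjusted p = 0.0452) and Gsto1 by 0.56 ± 0.16 (adjusted p = 0.0281). For Gstz1 the levels did not overlap, with at most 9.01 CPM in the 8 libraries of passage 20 and at least 9.92 CPM in the 12 of passage 25. The share of all genes without such overlap was not computed, so this is a description only. Gstt1 (1.75 ± 0.65, adjusted p = 0.0736) and Gstp1 (1.52 ± 0.52, adjusted p = 0.0583) missed the threshold in this fit. They passed with DESeq2 (0.0152 for Gstt1 and 0.0109 for Gstp1), where 6 members and 29.2% of all genes passed, and in edgeR with only the groups compared (0.0347 and 0.0369), where 6 members and 27.1% of all genes passed. Leaving out 1 library brought Gstp1 past the threshold in 4 of 20 omissions and Gstt1 in 1. With the block 8 of 9 passed, all higher, beside 63.3% of all genes and 28.2% higher. Markers of other cell types moved between the passages too. Of the 6 stellate cell and fibroblast markers tested, 4 were higher at passage 25 and 1 lower (median 0.94), and all 8 summed to 411.8 to 1011.2 CPM at passage 20 and 746.2 to 1608.9 CPM at passage 25. Of the 5 macrophage markers tested, 1 was higher and 3 lower (median -1.43), with all 6 summing to 65.7 to 106.2 and 69.3 to 139.9 CPM. The 1 endothelial marker tested was lower, as was 1 of 4 cholangiocyte markers, and of 8 hepatocyte and hepatoma markers 2 were higher and 1 lower. The part of these markers in the passage differences of the members was not tested. The labels give no batch. Passage and any other difference between the libraries of passage 20 and those of passage 25 therefore cannot be told apart.

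The size of that difference depended on which libraries of passage 25 were used. With replicate 1 alone at passage 25, Gstz1 was 0.94 and Mgst1 0.60 higher, and Gsto1 0.57 higher, and these 3 passed, beside 25.8% of all genes, while Gstm1 was 0.42 higher (adjusted p = 0.0631). Gsta4 then stood at -0.44 and Gstm2 at -0.35, neither past the threshold. With replicate 2 alone, 8 of 9 members passed, all higher, but so did 69.8% of all genes. The call of Gstm1 ended when any 1 of the 8 libraries of passage 20 was left out, or replicate 2 of any of the 4 control-grown and Cr(VI)-grown groups of passage 25 (adjusted p up to 0.135). That of Gsto1 ended in 11 of 20 omissions, 7 of them at passage 20 (adjusted p up to 0.0779). Other genes with transcripts as long as the members had a median passage difference of 0.22, against -0.04 over all genes.

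The gap between the replicate numbers at passage 25 was large for this family. Replicate 2 minus replicate 1 had a median of 1.41 on the log2 scale over the 9 members, -0.08 over all genes, 0.54 over the 1942 genes with transcripts of the same length range and -0.63 over the 2642 genes with transcripts over 5 kb. The difference was positive in 6 of 6 groups for 7 of 9 members, and in 33.8% of all genes. Gstp1 differed by 1.23 to 3.04, Gstm1 by 1.34 to 2.50, Gstm2 by 1.09 to 2.40, Gstt1 by 1.08 to 2.70 and Gsta4 by 0.96 to 2.13. Gsto1 was the contrary case, with replicate 2 higher in 2 of 6 groups and a median of -0.17, and Mgst1 had a median of 0.16. The TMM factors of passage 25 also separated the replicate numbers, with 1.02 to 1.38 for replicate 1 and 0.66 to 0.80 for replicate 2. The part of this scaling, of RNA quality or of library preparation in these gaps was not tested.

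**Figure D4:**
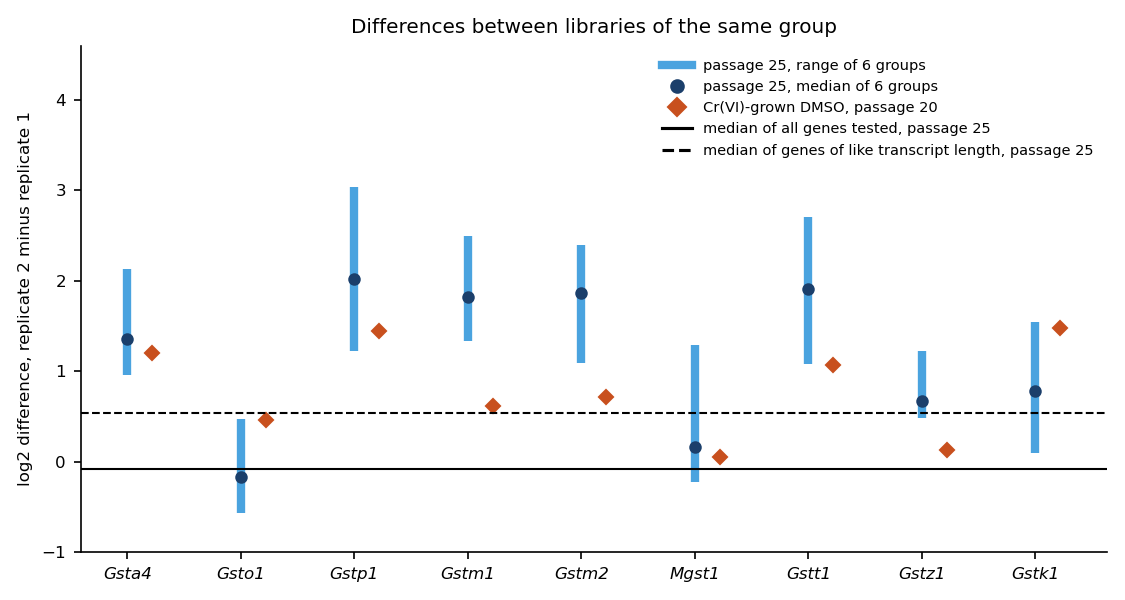
Log2 difference of replicate 2 minus replicate 1 for 9 members: blue bars give the range and dots the median over the 6 groups of passage 25, orange diamonds the Cr(VI)-grown DMSO group of passage 20, and lines the median over all genes (solid, -0.08) and over other genes of like transcript length (dashed, 0.54). The median of Gstp1 is 2.02 and that of Gsto1 -0.17. Both lines are for passage 25. In the Cr(VI)-grown DMSO group of passage 20 the median was -0.03 over all genes and 0.74 over other genes of like transcript length.

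Of 22 further genes of the transferase and membrane-associated families, 16 were tested over the 5 settings. B[a]P raised 4 and lowered 0, with a median of 0.49, where 7.59% of all genes passed and 3.86% were higher. The alpha-class genes Gsta1 (3.87-fold, log2 1.95 ± 0.34, adjusted p = 0.00349), Gsta2 (3.50-fold, adjusted p = 0.00213) and Gsta3 (1.92-fold, adjusted p = 0.00474) rose, as did Ptges, the inducible prostaglandin E synthase (2.58-fold, adjusted p = 0.0163). With Gsta4 these are 4 alpha-class genes. Gsta1 and Gsta2 were near the floor, with 0.169 to 5.10 and 0.169 to 4.85 CPM, and are close paralogs. Gstp2 (0.86 ± 0.46, adjusted p = 0.366) and Gstm3 (0.75 ± 0.42, adjusted p = 0.387) had values near those of Gstp1 and Gstm1 and missed the threshold. Their adjusted p with the block was 0.00413 and 0.000867. With the block 8 of the 16 were higher and 1, Gstcd, was lower (adjusted p = 0.00389), where 28.3% of all genes passed and 14.1% were higher.

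The genes that supply and recycle glutathione were read from a list of 40, of which 34 were tested. B[a]P raised 6 and lowered 0 over the 5 settings, with a median of 0.32. Both subunits of glutamate-cysteine ligase, which makes the first bond of glutathione, rose: the catalytic subunit Gclc 3.15-fold (log2 1.66 ± 0.29, adjusted p = 0.00352) and the modifier subunit Gclm 2.81-fold (log2 1.49 ± 0.20, adjusted p = 0.000563). Glutathione reductase, Gsr, which regenerates glutathione with NADPH, rose 1.98-fold (adjusted p = 0.0016), and thioredoxin reductase, Txnrd1, 2.01-fold (adjusted p = 0.00296). The small Maf genes Maff (2.05-fold, adjusted p = 0.00183) and Mafk (1.8-fold, adjusted p = 0.000832), whose proteins pair with Nrf2 on antioxidant response elements, rose as well. No gene of the peroxidases (4 tested), of conjugate export (4 tested) or of breakdown to mercapturates (8 tested) passed without the block. Of all genes, 3.86% were higher in that fit. With the block 15 of the 34 were higher and 3 lower, where 28.3% of all genes passed and 14.1% were higher. Under Cr(VI) growth with DMSO 0 of the 34 passed without the block, as did 0% of all genes, and 1 with it, a share near the 3.7% of all genes.

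Members and other genes were also compared by their pattern over the 20 libraries after the mean of each passage and replicate-number set (4 sets) was subtracted. Pearson's r, given as a description, was 0.96 between Gstm1 and Gstm2, 0.95 between Gstm1 and Gstp1 and 0.91 between Gstm2 and Gstp1. Between Gsta4 and these 3 it was 0.83 to 0.87, and between Gsta4 and Gsto1 0.85. Gsto1 and Gstz1 had -0.43. Outside the family, the genes most like Gstp1 were Upp1 (0.94), Cbr1 (0.94) and Cdk2ap2 (0.93), those most like Gstm1 were Upp1, Keap1 and Mlycd (0.95 each), and those most like Gsto1 were Adprm (0.96), Rgs10 and Creg1 (0.94 each). Cbr1 encodes carbonyl reductase 1, Upp1 uridine phosphorylase 1, and Keap1 the cytoplasmic inhibitor of Nrf2. All these points share their libraries.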

How the data were processed

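RNA-seq was measured in 20 Hepa-1 libraries, and groups came from the labels. The authors deposited raw counts per Entrez gene ID in 1 table. Per the submitters' processing notes, mm10, TopHat, DESeq, bcl2fastq and CASAVA 1.8 were used, with no roles given. Which program counted reads, on what annotation and with what strand setting, is not given in the sources used here. Total counts were 20976045 to 37930720.

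Symbols came from RefSeq (GRCm38.p6) and matched 23275 of 23373 IDs. Transcript lengths and the 50-base windows came from GENCODE M21, with the longest protein-coding transcript of each gene. Counts were tested in edgeR 4.0.16 (R 4.3.3): filterByExpr left 14343 genes, TMM scaled the libraries, and a quasi-likelihood model of 10 group means was fitted to the 20 libraries together. Tests were two-sided, with Benjamini-Hochberg adjustment over all genes and a threshold of 0.05. Counts of members with an unadjusted p under 0.05 have no share of all genes beside them, since none was computed. The same holds for counts of pairs below 9 of 10 and of settings below 4 of 5. Pair differences used log2(CPM + 0.5). Alternatives were a replicate block, RLE and upper quartile scaling, DESeq2 1.42.0, other count filters, the compared groups alone, and omitted libraries. Contrasts of the B[a]P response between passages, and between recovered and control-grown cells, were added later.

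Replicate differences of the groups correlated at 0.812 to 0.916 at passage 25 (15 pairs of groups), which pairs those libraries by number. The 6 correlations of passage 20 were -0.002 to 0.59. The block therefore holds by the data for passage 25 only.

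The members and lists were chosen with earlier results of these data known. All 10 members are described. Other genes are named from the lists, markers included, if past the threshold for B[a]P. The 3 genes most like each of the 3 most abundant members are named too. A planned limit of 8 names by fold change was not applied. Hepatocyte and hepatoma markers are named by their level. Gstp2, Gstm3 and Gstcd were named after their values were seen. Passage 25 is the labelled value, although titles of that set carry 27.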

Additional observations from a re-analysis of the deposited data

How the results depend on the processing

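The B[a]P result depended on how the replicate numbers were treated. Over the 5 settings 2 of 9 members passed, beside 7.59% of all genes. RLE scaling (7.8% of all genes), upper quartile scaling (7.75%), DESeq2 (12.5%) and the stricter filter of 1 CPM in all 20 libraries (7.34%) also gave 2. It was 6 with the replicate block (28.3%), 6 with the block at passage 25 only (26.9%) and 1 without the count filter (4.27%). Leaving out 1 library gave 0 to 3. Without the 6 replicate 2 libraries of passage 25 the log2 value was 1.37 for Gsta4 and 0.49 for Gsto1. Without the 6 replicate 1 libraries it was 1.5 and 0.57. For Gstm1 and Gstm2 the values were 0.53 and 0.61 without replicate 2, and 0.79 and 0.66 without replicate 1. Further members passed in both of these fits, which left 1 library in each group of passage 25. The second block and the fit without the replicate 1 libraries were chosen after seeing the data. In control-grown cells 0 members passed, beside 2.2% of all genes. The count was 5 with the replicate block (16.7%) and 5 with the block at passage 25 only (15.3%). It was 2 with DESeq2 (5.35%) and 1 with only the groups compared (3.8%). The log2 value of Gsta4 in these cells was 2.02 without replicate 2 and 1.84 without replicate 1 of passage 25. Members passed in both of these fits too, over both passages and at passage 20 alone. At passage 20 alone the count was 5 with the replicate block (13.4% of all genes) and 5 with the block at passage 25 only (11.8%). It was 2 with DESeq2 (4.06%) and 7 with only the groups compared (60.3%). At passage 25 alone the count was 1 with the replicate block (2.71%). In Cr(VI)-grown cells it was 1 with the replicate block (11.3%) and 1 with the block at passage 25 only (10.5%). The same counts held at passage 20 alone (3.05% and 2.72%). For passage 25 against passage 20, 4 became 8 with the block (63.3% of all genes called), 7 with the block at passage 25 only (61.4%) and 8 without the replicate 1 libraries (69.8%). With no block it was 6 with DESeq2 (29.2%) and 6 with only the groups compared (27.1%), 4 with RLE and with upper quartile scaling, and 3 without the count filter, with the stricter filter and without the replicate 2 libraries. Leaving out 1 library gave 2 to 6. The paired analysis changed no other count of members. Leaving out any 1 library left the other counts of 0 at 0.

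The sign of small values was not stable. Gstk1 under B[a]P turned from 0.02 to -0.01 with the replicate block, -0.02 with the block at passage 25 only and -0.19 without the replicate 2 libraries, and lay between -0.19 and 0.22 when 1 library was left out. Over the same omissions Gstz1 lay between -0.22 and 0.03, Gstt1 between -0.01 and 1.03, and Gsta4 in Cr(VI)-grown cells at passage 25 between -0.60 and 1.55. Without the replicate 2 libraries the passage differences of Gsta4 and Gstm2 were -0.44 and -0.35. The causes were not tested. With 2 libraries a group and a common dispersion of 0.228 (0.0453 with the block), counts of 0 do not show that values were alike.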
